A study of Mus musculus with 12 samples.

Results

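The genes described here are 34 genes of cell division and neurogenesis in the cerebral cortex of young adult mice. They were chosen by name, as known genes of these processes, with earlier results of these data known. Each was found in the deposited expression table, which holds 34193 rows. Of the 34, 24 are cell cycle genes: 13 of mitosis, 9 of DNA replication and nucleotide supply, and 2 D-type cyclins. The other 10 are kept apart from them: 6 genes of neural progenitors and 4 genes of immature neurons. RNA-seq after removal of ribosomal RNA was compared between 6 libraries of conditional knockout (cKO) mice, of genotype Nsd1 flx/flx with Nestin-cre +/-, and 6 libraries of controls, of genotype Nsd1 flx/flx with Nestin-cre -/-. Both groups thus carried loxP-flanked alleles of Nsd1, a methyltransferase of histone H3 lysine 36, and were aged 8 weeks. Nestin-Cre acts from embryonic neural progenitors onward, so neurons and the glia descended from them can recombine, whereas microglia and blood vessels largely do not. Since no control carried Cre, the presence of Cre and the loss of Nsd1 cannot be told apart. Replicates are numbered in the labels and no animal is named, so the p-values reflect how far these 12 samples spread.

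A dividing cell passes through the G1, S, G2 and M phases. D-type cyclins with their kinases release E2F factors from RB proteins in G1, E2F targets such as the MCM helicase subunits serve DNA replication, and cyclin B with Cdk1 and the Aurora and Polo-like kinases drive mitosis. In the developing cortex, radial glia express Nes, Sox2, Pax6 and Emx2, the proneural factor Neurog2 starts neuronal differentiation, Eomes marks intermediate progenitors, and Dcx, Sox4, Sox11 and Tubb3 mark young neurons. In the adult cortex few cells divide, many of them oligodendrocyte precursors, while astrocytes keep Sox2 and mature neurons keep Tubb3.

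Control libraries held 10.5 to 21.1 M reads in genes, and cKO libraries 14.6 to 27.0 M. Values are reads normalised between libraries, and 3 reads correspond to 1.98 to 5.64 normalised reads. In each genotype libraries 1 to 3 held Y-linked reads, at a sum over 4 genes of 1768 to 2047 normalised reads. Libraries 4 to 6 had a sum of 0, except cKO 6 at 3.09, and are called libraries without Y-linked reads. This split disagrees with the labelled sex of the same number in 8 of 12 libraries. These sets of 3 are therefore named by their reads. Control libraries 4 and 5 were 2 of the 3 shallowest and had 14.2% and 11.5% of their reads in mitochondrial ribosomal RNA, against 1.46% to 6.00% elsewhere. Nsd1 itself ranged from 3214 to 5269 normalised reads in the controls and from 2853 to 3617 in the cKO (limma log2 fold change -0.36, SE 0.12, adjusted p = 0.383). The part of Nsd1 that is deleted is not given in the labels, so this value covers the whole gene. All 10 markers of mature cortical neurons were detected and tested, and their summed level was 87853 to 122196 normalised reads in the controls and 105345 to 121540 in the cKO.

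Neurog2 was lower in the cKO, from a very low level that kept it out of the main test. The D-type cyclins Ccnd1 and Ccnd2 were about 1.22 times the control mean without passing the main test. No replication, mitotic or immature neuron gene passed a test between the genotypes. Of the 34 genes, 24 had a mean of at least 10 normalised reads and were tested with limma among 14397 genes. None of the 24 reached a Benjamini-Hochberg adjusted p under 0.05, the smallest being 0.168, beside 0.834% of all tested genes. At that share, 0 of 24 does not set the members apart. At an unadjusted p under 0.05 limma gave Ccnd1 and Ccnd2 higher and Emx2 lower, 3 of 24, beside 9.73% of all tested genes (4.61% higher and 5.13% lower). That background was 16.8% without control 2, 6.14% without control 4, 5.48% without control 5 and 4.10% without both 4 and 5, with 3, 3, 4 and 3 members. edgeR on the reads recovered from the same values also called 0 of the 24, with 3 at an unadjusted p under 0.05. DESeq2 called 1 of them, Ccnd1, where it called 1.17% of all genes. For none of the 24 did the cKO and control libraries separate completely, as they did for 1.01% of all tested genes.

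The median log2 fold change of the 16 tested cell cycle genes was -0.03, with 6 above 0 and 10 below. The 8 tested progenitor and immature neuron genes had a median of -0.01, with 4 above 0 and 4 below. Over all tested genes the median was -0.00069. In bulk tissue, fewer cells of a type and less RNA per cell cannot be told apart. The other 10 members stayed under the mean of 10 and were compared by an exact permutation test of the 12 libraries, whose smallest possible p is 0.00216.

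**Figure D1:**
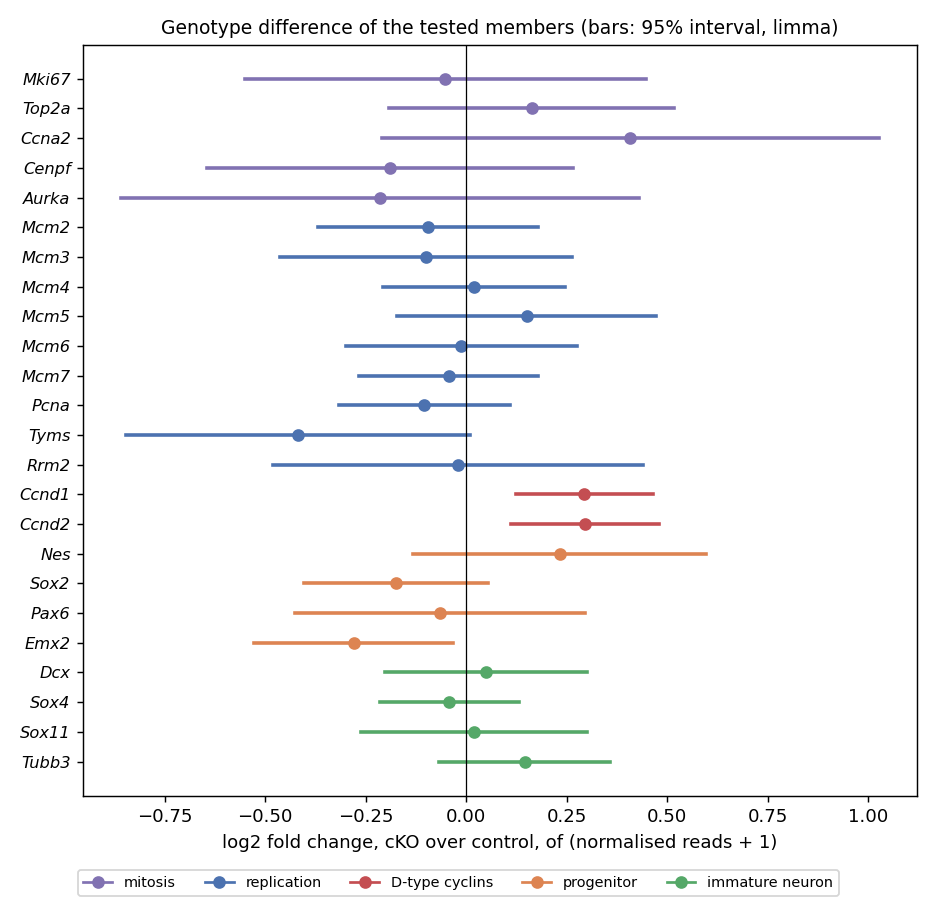
Log2 fold change of the 24 tested genes, cKO over control, on the scale of log2(normalised reads + 1), with the 95% interval of each gene from limma (not adjusted for the number of genes) and colours by role. The intervals of Ccnd1 (0.12 to 0.46), Ccnd2 (0.11 to 0.48) and Emx2 (-0.53 to -0.03) do not include 0, and the other 21 do.

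Neurog2 encodes neurogenin 2, a basic helix-loop-helix factor that commits cortical progenitors to the neuronal fate. Its level in the controls had a lowest value of 7.51, a median of 12.7 and a highest value of 19.7 normalised reads. In the cKO the lowest was 0.660, the median 2.75 and the highest 8.30. Every cKO library except cKO 4 lay below the lowest control, and cKO 4 lay above control libraries 2 and 6 only. These values rest on few reads, 6 to 24 in each control library and 1 to 7 in each cKO library, with 71 and 21 reads in all. The means were 12.6 ± 4.58 and 3.31 ± 2.87 normalised reads (SD, n = 6 each), a 3.81-fold lower level in the cKO.

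The log2 difference of Neurog2 was -1.85 with a pseudocount of 1 (exact permutation test, two-sided, p = 0.0065). Of the 10 members below a mean of 10, Neurog2 alone had an exact p under 0.05. Among 1240 genes below that mean and at least as high as the lowest member, 11.6% had such a p, 4.35% with the lower level in the cKO. With no filter on low values, limma called Neurog2 alone of the 34 members (adjusted p = 0.0491 over 19997 genes, of which 0.75% were called). edgeR on all genes, a fit chosen after seeing the data, also called Neurog2 alone (adjusted p = 0.0206, with 0.79% of genes called). The authors' deposited table lists 2 of the 34 members at an adjusted p under 0.05, beside 0.906% of the genes it gives an adjusted p. One of these is Neurog2, at a log2 fold change of -2.01 (standard error 0.51, adjusted p = 0.0128, both from the authors' deposited table). With a pseudocount of 5 the difference was -1.11 at the same exact p, because the level lies near that pseudocount. Within the libraries with Y-linked reads the difference was -1.97 (exact permutation p = 0.1, the smallest that 3 against 3 allows), and within those without it was -1.73 (exact permutation p = 0.2). Without control libraries 4 and 5 it was -1.76 (exact permutation p = 0.0238).

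**Figure D2:**
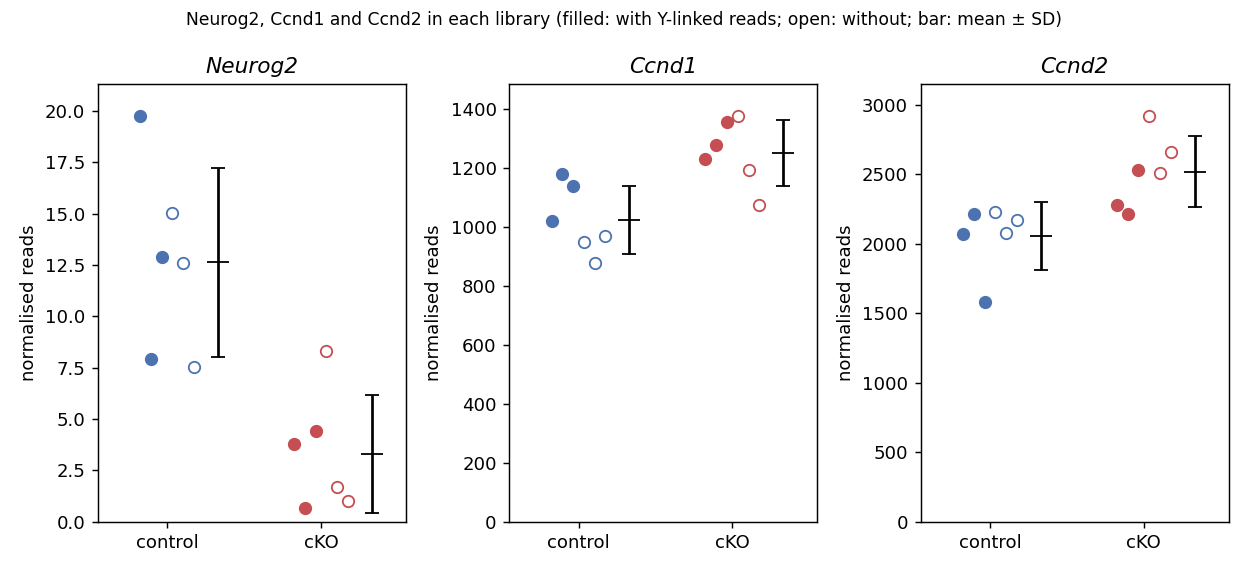
Normalised reads of Neurog2, Ccnd1 and Ccnd2 in each of the 12 libraries, with points filled for libraries with Y-linked reads and open for those without, and bars for the mean ± SD of each group. For Neurog2, 5 of 6 cKO libraries lie below the lowest control, and 5 of 6 lie above the highest control for Ccnd1 and for Ccnd2.

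Eomes, the T-box factor of intermediate progenitors and the least abundant member, was near the limit of detection. Control libraries ranged from 3.52 to 4.94 normalised reads with a median of 3.98, and cKO libraries from 1.76 to 4.11 with a median of 3.06. The groups overlapped, and the log2 difference of -0.36 gave an exact permutation p of 0.0584. That p was 0.0476 with values scaled by TMM, 0.0238 without cKO library 2 and 0.0195 without cKO library 6. These libraries, at 3.96 and 4.11, held the highest cKO values. With each single library left out the exact permutation p ran from 0.0195 to 0.115. The authors' deposited table gives Eomes an adjusted p of 0.921. Other genes of the intermediate progenitor and proneural group were listed to set beside these, and 7 of 9 were tested, with 0 called by limma. Among them Neurod1, a proneural factor downstream in the same lineage that also stays on in other neurons, had a control mean of 157 ± 27.2 and a cKO mean of 199 ± 31.4 normalised reads (SD, n = 6; limma adjusted p = 0.476). Dll1, a Notch ligand, had means of 86.0 ± 6.81 and 68.7 ± 19.7 (SD, n = 6; limma adjusted p = 0.483).

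The progenitor genes above the filter are also genes of adult astrocytes or vessels. Emx2, a homeobox factor of dorsal telencephalon, ran from 197 to 331 normalised reads in the controls with a median of 273, and from 182 to 268 in the cKO with a median of 212. The groups overlapped, with 2 of 6 cKO libraries below the lowest control. Its log2 fold change was -0.28 (SE 0.12, limma adjusted p = 0.476). The value was -0.08 in the libraries with Y-linked reads and -0.48 in those without, where the 3 controls were at 292 to 331 and the 3 cKO libraries at 182 to 268.

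Sox2, a stem cell factor that astrocytes retain, had a median of 642 normalised reads in the controls (488 to 720) and 517 in the cKO (494 to 672). The ranges overlapped, and its log2 fold change was -0.18 (SE 0.11, limma adjusted p = 0.563). Pax6, a paired-box factor of radial glia, had medians of 118 (85.6 to 175) and 112 (87.1 to 149). Nes, the intermediate filament nestin, had medians of 236 (158 to 324) and 290 (193 to 362). Both genes overlapped widely between the groups, with log2 fold changes of -0.06 (SE 0.17) and 0.23 (SE 0.17). The Nes values are those of the mouse gene and do not measure the Cre construct. Of 14 other tested neural stem cell genes limma called 0, with a median log2 fold change of -0.11. Beside 4.61% higher and 5.13% lower of all tested genes, limma gave 1 of the 14 higher and 4 lower at an unadjusted p under 0.05. The smallest p among them belonged to Hes5, a Notch effector, with a control mean of 317 ± 62.9 and a cKO mean of 219 ± 42.0 normalised reads (SD, n = 6; limma adjusted p = 0.226), followed by Id1, an inhibitor of helix-loop-helix factors (log2 fold change -0.43, limma adjusted p = 0.356). The median of these 14 genes was 0.02 in the libraries with Y-linked reads, with 7 above 0. In those without it was -0.31, with 4 above 0. Averaged over the 14, the log2 deviation from the mean of 12 libraries was highest in control 4 (0.31) and control 5 (0.19). It was lowest in cKO 4 (-0.33). For a genotype difference that varies between the sets, limma called 0 of the 14. It gave 5 an unadjusted p under 0.05, beside 8.77% of all genes.

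All 4 immature neuron genes were tested, and limma called 0 of them. Tubb3, the neuronal beta-tubulin, was the most abundant of the 34 genes per kilobase of exon, at 3074 normalised reads per kilobase, above 98.5% of tested genes. Its control libraries had a lowest value of 3985, a median of 5919 and a highest value of 6499 normalised reads, and its cKO libraries 5414, 5973 and 6436. Control libraries 4 and 5, at 3985 and 4627, stood below the other 10. The log2 fold change of Tubb3 was 0.15 (SE 0.10, limma adjusted p = 0.587), and -0.01 without those 2 libraries. Dcx, the microtubule protein doublecortin of migrating neurons, had medians of 401 (304 to 502) and 402 (315 to 504). Sox4 and Sox11, SoxC factors that switch on neuronal genes, had log2 fold changes of -0.04 (SE 0.08) and 0.02 (SE 0.13).

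The 95% interval of the log2 fold change was -0.20 to 0.30 for Dcx and -0.21 to 0.13 for Sox4. Of 15 other tested immature neuron genes limma called 0, with a median of 0.06. Nnat, neuronatin, had -0.40 as its log2 fold change (limma adjusted p = 0.476), and Igfbpl1, known from newborn neurons, -0.49 (limma adjusted p = 0.525). Of 10 markers of rostral migratory stream neuroblasts, which could enter a dissection of the forebrain, limma called 0. Their summed level was 2832 to 4078 normalised reads in the controls and 3138 to 4173 in the cKO.

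The D-type cyclins connect growth signals to the G1 kinases. Ccnd1 had a lowest control of 877, a median of 996 and a highest control of 1178 normalised reads. In the cKO the lowest value was 1075, the median 1254 and the highest 1376. Of the cKO libraries 5 of 6 lay above the highest control, and cKO 6, at 1075, lay below control libraries 2 and 3. The means were 1022.5 ± 116 and 1251 ± 112 (SD, n = 6), and the log2 fold change was 0.29 (SE 0.08, limma adjusted p = 0.168, unadjusted p = 0.0022). The value was 0.21 in the libraries with Y-linked reads and 0.38 in those without.

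Ccnd1 is the member whose call depends on the tool. DESeq2 on the recovered reads called it (adjusted p = 0.0405), as does the authors' deposited table (adjusted p = 0.0474), whereas edgeR did not (adjusted p = 0.183). Ccnd2, the D-type cyclin best known from neural progenitors, gave 1577.5, 2125 and 2232 as the lowest, median and highest control, and 2216, 2521 and 2919 in the cKO. Again 5 of 6 cKO libraries exceeded the highest control, and control 3 stood below the rest. The log2 fold change of Ccnd2 was 0.30 (SE 0.09, limma adjusted p = 0.245), with 0.27 and 0.32 in the sets with and without Y-linked reads, and 0.23 without control library 3. The authors' deposited table gives Ccnd2 an adjusted p of 0.116. Both cyclins were abundant for cell cycle genes, at 304 and 341 normalised reads per kilobase.

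Inhibitors of the cyclin-dependent kinases were listed to be read beside the cyclins, and 5 of 7 were tested. Limma called 0 of them. Cdkn1c, the p57 inhibitor, had a control mean of 123 ± 13.0 and a cKO mean of 85.7 ± 14.2 normalised reads (SD, n = 6), or -0.52 as a log2 fold change (limma adjusted p = 0.0689). The authors' deposited table lists Cdkn1c at an adjusted p of 0.0207. Cdkn1a, the p21 inhibitor induced by p53, had means of 330 ± 134 and 416 ± 82.4 (SD, n = 6; limma adjusted p = 0.457). The next tier, RB and E2F family genes with their cyclins, had 16 of 18 tested, 0 called by limma and a median of -0.02. Rbl1, the pocket protein p107, had a log2 fold change of -0.34 and Ccne1, cyclin E1, one of 0.21 (limma adjusted p = 0.564 and 0.565).

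All 9 replication genes were measured above the filter, and limma called 0 of them. Pcna, the sliding clamp of the replication fork, was the highest of them at 313 normalised reads per kilobase. Pcna controls ran from 460 to 597 with a median of 473 and cKO libraries from 392 to 539 with a median of 456 (log2 fold change -0.10, SE 0.10). The MCM genes, Mcm2 to Mcm7, which encode the subunits of the replicative helicase, had log2 fold changes between -0.10 and 0.15. Among these Mcm4 and Mcm5 were above 0, at 0.02 (SE 0.11) and 0.15 (SE 0.15), and the other 4 below 0.

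Tyms, the thymidylate synthase, had the lowest log2 fold change of the tested members, -0.42 (SE 0.20, limma adjusted p = 0.517). Its controls ran from 21.1 to 37.6 normalised reads with a median of 24.8, and its cKO libraries from 15.1 to 34.4 with a median of 18.6. In the cKO 5 of 6 libraries were below the lowest control, and cKO 4 stood above the control median. Rrm2, a subunit of ribonucleotide reductase, had medians of 47.9 and 40.7 with control 6 alone at 20.0. Of 22 other tested genes of origin licensing and replication limma called 0, with a median of -0.05. Gmnn, the licensing inhibitor geminin, had a log2 fold change of -0.39 and Orc6, an origin recognition subunit, one of -0.21 (limma adjusted p = 0.527 and 0.577).

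The 13 mitotic genes were the least abundant class, between 1.11 and 8.43 normalised reads per kilobase, where the median of all tested genes was 122. Top2a, the topoisomerase that untangles sister chromatids, was the highest of them. Its controls lay within 36.1 to 43.6 normalised reads and its cKO libraries within 34.8 to 61.7 (log2 fold change 0.16, SE 0.17). Above the highest control lay 3 cKO libraries and below the lowest 2, a wider spread in the cKO. Ccna2, cyclin A2, had medians of 11.2 and 16.5 with a log2 fold change of 0.41 (SE 0.29), the highest among the tested members (limma adjusted p = 0.601). Aurka, the Aurora A kinase of spindle poles, had medians of 16.7 and 15.1, with cKO 4 at 4.74.

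Mki67, the Ki-67 antigen of cycling cells, ranged from 20.6 to 71.4 normalised reads in the controls and from 28.8 to 46.2 in the cKO (log2 fold change -0.05, SE 0.23). Cenpf, a kinetochore protein of late G2 and mitosis, had medians of 26.3 and 23.1 (log2 fold change -0.19, SE 0.21). The controls of both genes were more spread than the cKO libraries: Mki67 had a coefficient of variation of 48.9% in the controls and 18.1% in the cKO. The remaining 8 mitotic genes were below the filter. They are Ccnb1, Ccnb2 and Cdk1, the mitotic cyclins and their kinase, Birc5 and Aurkb of the chromosomal passenger complex, Bub1 of the spindle checkpoint, Ube2c of the anaphase-promoting pathway, and Plk1, the Polo-like kinase. Their group means lay between 3.08 and 10.6 normalised reads, Bub1 was at 0 reads in some libraries, and their exact permutation p-values ran from 0.307 to 0.946.

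Of 22 other tested mitotic genes limma called 0, with a median of 0.09. Hmmr, a spindle and hyaluronan-binding protein, had a control mean of 19.8 ± 4.37 and a cKO mean of 26.3 ± 4.33 normalised reads (SD, n = 6; limma adjusted p = 0.482). The log2 fold change of Racgap1, a regulator of cytokinesis, was 0.25 (limma adjusted p = 0.520). Markers of oligodendrocyte precursors, the main dividing cells of adult cortex, had 0 of 10 called, with summed levels of 5586 to 6614 normalised reads in the controls and 5182 to 6244 in the cKO. In that list Gpr17, a receptor of committed precursors, had a log2 fold change of 0.29 and Bmp4, a secreted ligand, one of -0.34 (limma adjusted p = 0.402 and 0.476).

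Motifs in the promoters, which the choice of genes did not use, were counted for each class. RefSeq promoters, here 250 bases before to 50 after the start in build GRCm38.p6, were found for 29 of the 34 genes, and not for Ccna2, Mcm4, Ccnd1, Ccnd2 and Aurkb. The motifs were searched on both strands: the cell cycle homology region TTTGAA, known from genes of G2 and mitosis, the CCAAT box, and an E2F motif spelled GCGGGAA or else GCGCGAA. The cell cycle homology region was present in 8 of 11 mitotic promoters and 1 of 8 replication promoters, against 20.2% of 27025 genes. CCAAT was present in 10 of 11 mitotic and 7 of 8 replication promoters, against 41.1%. It was also present in 4 of 6 progenitor and 4 of 4 immature neuron promoters, so it did not set the cell cycle genes apart. The E2F motif was present in 4 of 8 replication promoters, those of Mcm3, Mcm5, Mcm6 and Mcm7, and in 1 of 11 mitotic ones, against 6.86%. A match is a description of letters and not a binding site.

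Mki67, Cenpf and Mcm6 are shown because their genotype differences had the 3 smallest p-values for a difference between the sets of libraries, as described next. Each sequence is the 250 bases before the start on the coding strand, 5′ to 3′, with motif matches on either strand in capitals. These are the CCAAT box and its reverse complement, the cell cycle homology region and, in Mcm6, the E2F motif GCGCGAA. The Mki67 promoter is chr7:135716380-135716629, minus strand, the Cenpf promoter chr1:189688087-189688336, minus strand, and the Mcm6 promoter chr1:128359706-128359955, minus strand. The TTTGAA match of Cenpf lies in the 50 bases after the start, which are not shown.
Mki67: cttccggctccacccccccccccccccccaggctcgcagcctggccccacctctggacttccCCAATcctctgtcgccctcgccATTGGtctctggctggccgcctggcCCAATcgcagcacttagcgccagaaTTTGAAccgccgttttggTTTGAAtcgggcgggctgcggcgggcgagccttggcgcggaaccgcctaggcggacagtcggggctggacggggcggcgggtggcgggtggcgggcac
Cenpf: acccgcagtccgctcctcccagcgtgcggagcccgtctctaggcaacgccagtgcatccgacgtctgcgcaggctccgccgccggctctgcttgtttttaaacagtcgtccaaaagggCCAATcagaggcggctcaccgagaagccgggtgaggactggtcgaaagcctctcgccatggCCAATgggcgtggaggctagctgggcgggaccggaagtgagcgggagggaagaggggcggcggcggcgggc
Mcm6: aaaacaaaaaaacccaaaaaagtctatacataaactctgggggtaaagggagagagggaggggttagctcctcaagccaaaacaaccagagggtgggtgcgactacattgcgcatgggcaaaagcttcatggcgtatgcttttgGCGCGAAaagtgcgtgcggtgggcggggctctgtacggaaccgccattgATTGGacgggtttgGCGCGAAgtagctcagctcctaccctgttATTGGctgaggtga
Mki67 has 2 TTTGAA and 3 CCAAT matches in this stretch, Cenpf 2 CCAAT matches, and Mcm6 2 E2F and 2 CCAAT matches.

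Within the 2 sets of libraries, the genotype difference of some members took opposite signs. Mki67 in the libraries with Y-linked reads ran from 20.6 to 28.8 normalised reads in the controls and from 32.5 to 46.2 in the cKO. In the libraries without them it ran from 39.1 to 71.4 in the controls and from 28.8 to 38.4 in the cKO. Every cKO library was thus above every control in the first set and below every control in the second. The log2 fold changes were 0.57 and -0.68, which differ by -1.25 (SE 0.36, limma interaction adjusted p = 0.562, unadjusted p = 0.0035). Cenpf gave 0.35 and -0.73, a difference of -1.08 (SE 0.34, limma interaction adjusted p = 0.562, unadjusted p = 0.0063). Its controls were at 18.9 to 21.4 in the first set and 31.3 to 37.6 in the second.

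Mcm6 went the other way and Sox2 the same way. Mcm6 controls with Y-linked reads, at 120 to 129 normalised reads, stood above their cKO libraries, at 99.4 to 103, and in the other set the groups overlapped (log2 fold changes -0.29 and 0.27). Sox2 had log2 fold changes of 0.05 and -0.40, with controls at 640 to 720 and cKO libraries at 494 to 527 in the set without Y-linked reads. None of the 24 interactions was called by limma, as for all genes tested (0.0%), and 4 of 24 had an unadjusted p under 0.05, beside 8.77% of all genes. The share of all genes depended on single libraries: it was 18.4% without control 3 and 16.0% without control 6, with 6 and 7 members. Without control 1, 2, 4 or 5 or cKO 3 it was 4.65%, 5.36%, 4.33%, 4.48% and 4.18%, with 2, 3, 2, 5 and 3 members, and without both control 4 and 5 it was 1.56%, with 3 members. The adjusted p was 0.562 for each of these 4 genes, so the test did not show that the genotype difference itself varies between the sets. No other tool was run on this interaction. Within the sets, 2 of 24 members had an unadjusted limma p under 0.05 with Y-linked reads (2.56% of all genes) and 7 of 24 without (22.5%). The latter share was 13.7% without control 4 and 12.9% without control 5, with 5 members each. Without both it was 3.92%, with 1 member, in a fit where the lone control left in that set is assumed to vary like the other groups.

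**Figure D3:**
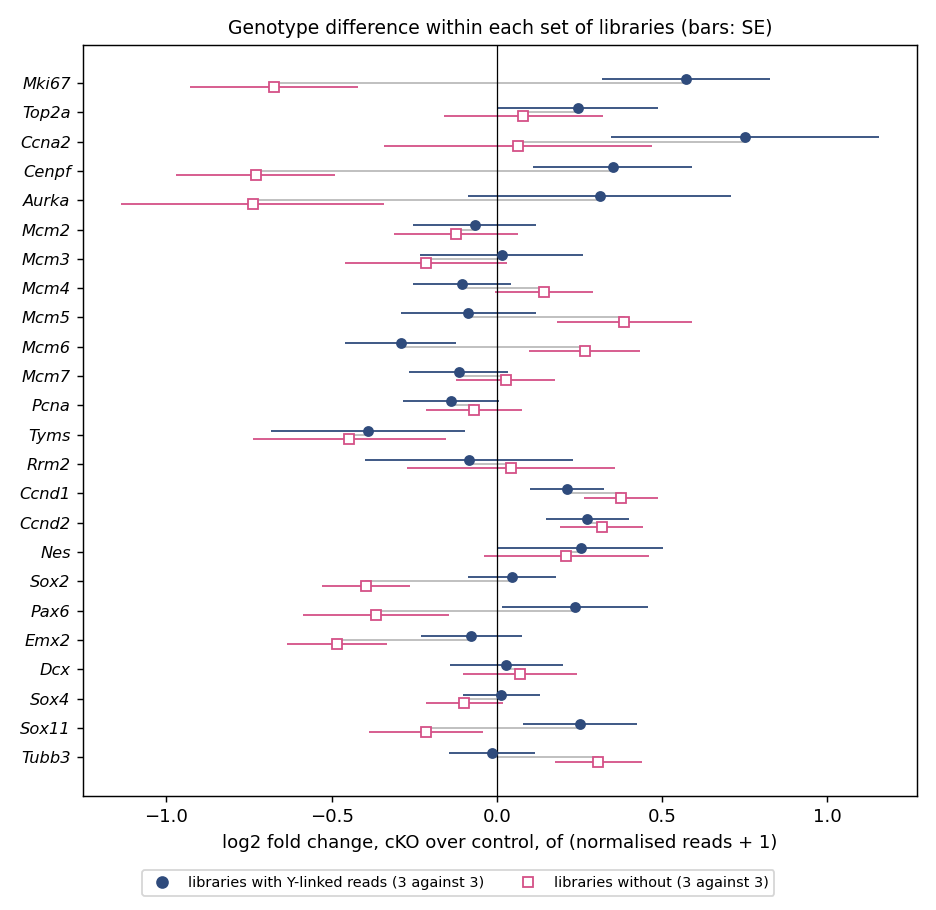
Log2 fold change of the 24 tested genes, cKO over control, in the libraries with Y-linked reads (filled circles) and without (open squares), 3 against 3 in each, with SE from a limma model of 4 groups. Mki67, at 0.57 and -0.68, and Cenpf, at 0.35 and -0.73, lie on opposite sides of 0, while Ccnd1 and Ccnd2 lie above 0 in both sets.

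All 5 tested mitotic members were above 0 in the set with Y-linked reads and 2 of 5 in the set without. The 22 other tested mitotic genes did not show such a change, with 15 above 0 in the first set and 13 in the second. Of the 4 tested progenitor members 3 were above 0 in the first set and 1 in the second, with medians of 0.14 and -0.38. The 9 replication members went the other way, with 1 above 0 in the first set and 5 in the second. Of all 14397 tested genes 6932 and 7077 were above 0. The 3 controls of the set without Y-linked reads were the shallowest of the 12 libraries, at 10.5 to 13.8 M reads, and include both libraries rich in mitochondrial ribosomal RNA. Without control libraries 4 and 5 the log2 fold change over both sets was 0.17 for Mki67 and 0.02 for Cenpf. The difference between the sets was then -1.22 for Mki67 and -0.98 for Cenpf, beside -1.25 and -1.08 with all libraries. Control 6 was then the lone control of the set without Y-linked reads. These 2 differences therefore rest on 1 control library there and cannot show whether the difference holds. Control 4 held the highest value of 6 of the 24 tested genes and the lowest of 4, more than any other library in each case.

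Markers of astrocytes, microglia and mature neurons also had different signs in the sets. Of 8 astrocyte markers, 8 were above 0 in the set with Y-linked reads and 3 in the set without, and of 8 microglia markers 7 and 1. Of 10 mature neuron markers, 2 were above 0 in the set with Y-linked reads and 10 in the set without. The summed astrocyte markers ranged from 109119 to 177254 normalised reads in the controls and from 117187 to 153220 in the cKO, and the summed microglia markers from 5498 to 6706 and from 5583 to 6877. No marker of the astrocyte, microglia and mature neuron lists was at 0 in all libraries. The part of any of these cell types in the values of Mki67, Cenpf, Sox2 and Emx2 was not tested. Over both sets limma called 1 astrocyte marker, the water channel Aqp4 (log2 fold change 0.53, adjusted p = 0.0097), and 0 of the microglia, vascular (8 tested), choroid plexus (5 tested) and mature neuron markers.

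**Figure D4:**
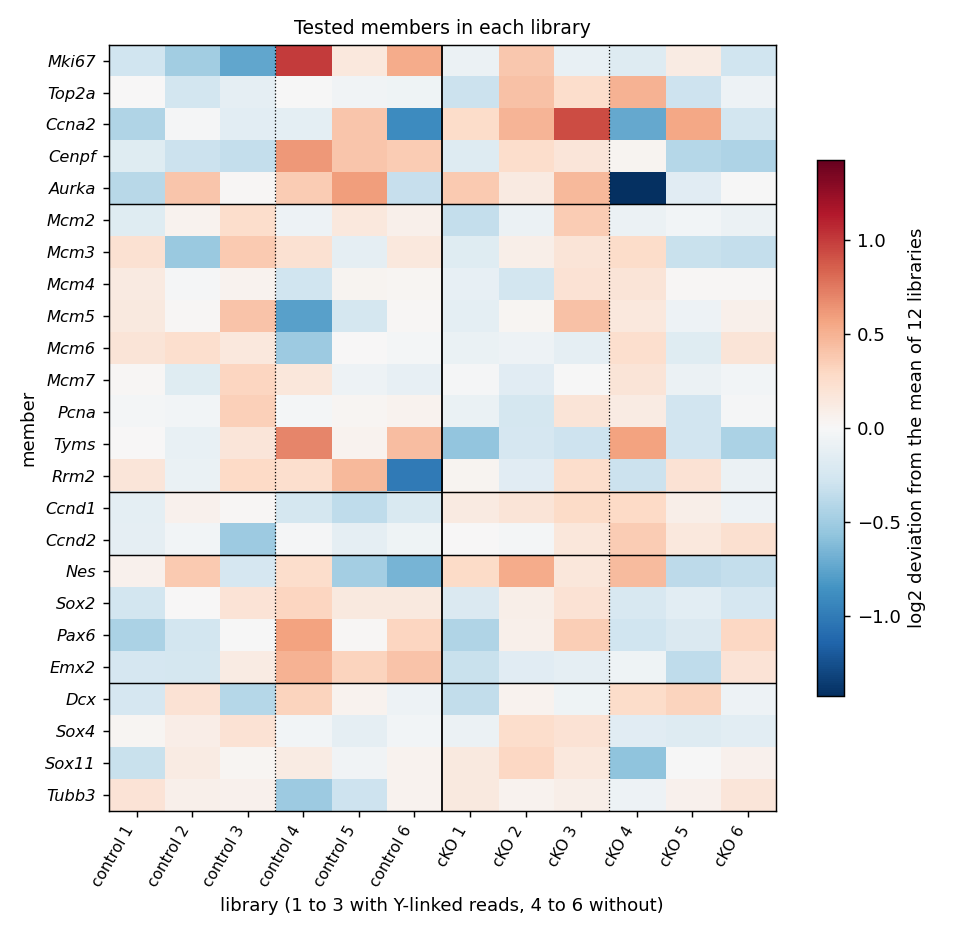
Log2 deviation of each tested gene (rows, by role) in each library (columns) from its mean over the 12 libraries, with red above and blue below the mean. Control 4 is high for Mki67, Cenpf and Tyms and low for Mcm5 and Tubb3, and the cKO libraries are mostly above the controls for Ccnd1 and Ccnd2.

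No member passed the test between the sets themselves. For the libraries without against those with Y-linked reads, limma called 0 of the 24 genes (0.0764% of all tested genes) and gave 5 an unadjusted p under 0.05 (11.7% of all). Without control 1, 2, 4 or 5 the share of all genes was 6.33%, 7.61%, 7.07% and 6.47%, with 4, 4, 3 and 3 members, and without both 4 and 5 it was 3.62%, with 3 members. With all libraries the 5 were Emx2 and Dcx, higher without Y-linked reads by log2 differences of 0.32 and 0.27, and Nes, Sox4 and Ccnd1, with log2 differences of -0.38, -0.23 and -0.17. No other tool was run on this term.

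Several members overlap another gene in the GENCODE annotation, and the sources used here do not say whether counting used the strand, so their reads may be shared. On the opposite strand lie Exosc9 for Ccna2, Cops6 and Ap4m1 for Mcm7, Tnnc2 for Ube2c, Emx2os for Emx2, Pax6os1 for Pax6 and 9330179D12Rik for Ccnd2. Sox2 lies within Sox2ot on the same strand. Tubb3 overlaps the protein-coding Gm20388 on the same strand, and Ccnd1 the protein-coding LTO1 on the opposite strand. Neither Gm20388 nor LTO1 has a value under that name, so their levels cannot be set beside Tubb3 and Ccnd1. Plk1, Ccnd2, Eomes and Sox4 also overlap, on the opposite strand, a gene without a value. Exosc9, at a mean of 488 normalised reads against 13.4 for Ccna2, and Cops6, at 1422 against 161 for Mcm7, were far above the member they overlap, so the values of Ccna2 and Mcm7 are uncertain. Sox2ot, at 885, was above Sox2, at 588. Emx2os was at 49.7 against 239 for Emx2, and 9330179D12Rik at 54.0 against 2289 for Ccnd2.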

How the data were processed

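Per the labels' protocols, ribosomal RNA was depleted and libraries were made with a kit that keeps strand. Per the submitters' processing notes the tools were Trim Galore, Bowtie, STAR and bedtools with build mm9, with no versions or roles. The strand setting of the counting is not given. The deposited signal is, per the file headers, a read count normalised by the authors. Every value was a whole multiple of 1 step per library (100% whole within a tolerance of 0.01), which gave the reads behind it. The authors also deposited their own comparison, with a log2 fold change, a score (the test statistic), a p-value and an adjusted p-value for each gene.

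Columns were assigned to a genotype by name and not to single samples. Genes with a mean of 10 or more (14397) were tested two-sided by limma-trend on log2(value + 1), with terms for genotype and for Y-linked reads (4 genes, summed value above 100), adjusted by Benjamini-Hochberg. A DESeq2 fit with these terms differed from the authors' deposited log2 fold changes by at most 1.31e-05 over 19997 genes. Set effects were the Y-linked term of this main limma model. Interactions and their genotype differences within sets came from a limma model of 4 groups. Members below the filter had exact permutation tests. All 34 members are described. Of each other list, called genes and otherwise up to 2 genes per group with the smallest p are named. The members and lists were chosen with earlier results of these data known. For 30 replicate pairs, chi-square divided by its degrees of freedom was 7.03 to 169, far above sampling noise. Exon lengths came from GENCODE annotation of GRCm38 by symbol. The code was tested on simulated data. Alternatives were the pseudocount (0.5 or 5), the filter (none or 50), TMM and quantile scaling, no Y-linked term, a replicate block, each library left out, control libraries 4 and 5 left out, each set alone, and edgeR or DESeq2 on recovered reads. The last 2 were also run on all genes, chosen after seeing the data. Versions were R 4.3.3, limma 3.58.1, edgeR 4.0.16, DESeq2 1.42.0, Python 3.11.15, pandas 2.3.3 and scipy 1.17.1.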

Additional observations from a re-analysis of the deposited data

Results flagged for a closer look

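In each genotype the highest and lowest library of each of the 34 genes was compared with its nearest neighbour by Dixon's ratio, over 68 groups of 6 libraries, and 4 stood far from the others. Chance flags about 1 in 20 groups. Mcm2 in cKO 3 was at 103.8 normalised reads (118 reads), where the other cKO libraries reached 63.6 to 78.5. Pcna in control 3 was at 597, where the other controls lay at 460 to 488. Ccnd2 in control 3 was at 1577.5, where the other controls lay at 2074 to 2232. Tyms in cKO 4 was at 34.4 normalised reads, from 29 reads, where the other cKO libraries lay at 15.1 to 19.1. Without control 3 the log2 fold change of Ccnd2 was 0.23 (limma adjusted p = 0.472).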

How the results depend on the processing

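Few reads limit the mitotic genes, Eomes and Neurog2, and 3 libraries per set limit the values within sets. No tested member was called by limma with all genes above the filter under any alternative. Neurog2 was the 1 progenitor member called with no filter, by edgeR on all genes and by DESeq2 on all genes, and Ccnd1 the 1 cell cycle member called by DESeq2 with the filter or on all genes. The filter at 50, quantile scaling, the fit without the Y-linked term, the replicate block and edgeR or DESeq2 with the filter gave no value for the 10 members below the filter. The filter at 50 also gave none for Ccna2, Aurka, Tyms, Cenpf, Mki67, Rrm2 and Top2a, whose means were 13.4 to 44.0. Where a sign changed, the cause was not tested.

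Over all genes the counts called higher and lower were 53 and 5 with the filter at 50, 17 and 0 within the set with Y-linked reads and 21 and 0 within the set without. The count lower was 6 without control libraries 4 and 5, 20 with edgeR on all genes, 26 with DESeq2 and 24 with DESeq2 on all genes. The median of the progenitor and immature neuron members was -0.16 within the set without Y-linked reads. Members with an exact p under 0.05 numbered 2 with TMM scaling, from 1 to 2 with single libraries left out, and 0 within each set, where 3 against 3 cannot give an exact p below 0.1 and the count of 0 carries no information.

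Log2 differences changed sign as follows. On all genes Ccnb1 was at 0.28 with DESeq2 and 0.32 with edgeR, and Ccnb2 at -0.0018 with edgeR. With quantile scaling Mcm6 was at 0.019 and Rrm2 at 0.012. Within the set with Y-linked reads the values were 0.57 for Mki67, 0.93 for Ccnb1, 0.35 for Cenpf, 0.31 for Aurka, 0.15 for Plk1, 0.015 for Mcm3, -0.11 for Mcm4, -0.086 for Mcm5, 0.046 for Sox2, 0.24 for Pax6, 0.014 for Sox4 and -0.015 for Tubb3. Within the set without they were -0.15 for Ccnb2, -0.27 for Ube2c, 0.27 for Mcm6, 0.027 for Mcm7, 0.043 for Rrm2 and -0.21 for Sox11. Without control libraries 4 and 5 they were 0.17 for Mki67, 0.43 for Ccnb1, 0.023 for Cenpf, 0.14 for Aurka, 0.0063 for Aurkb, -0.057 for Mcm4, -0.045 for Mcm5, 0.26 for Rrm2, 0.034 for Pax6 and -0.0099 for Tubb3. With single libraries left out the ranges that crossed 0 were -0.19 to 0.12 for Mki67, -0.32 to 0.20 for Ccnb1, -0.18 to 0.35 for Ccnb2, -0.36 to 0.044 for Aurka, -0.033 to 0.42 for Ube2c, -0.043 to 0.078 for Mcm4, -0.12 to 0.030 for Mcm6, -0.088 to 0.021 for Mcm7, -0.23 to 0.10 for Rrm2, -0.18 to 0.030 for Pax6, -0.0042 to 0.13 for Dcx and -0.064 to 0.13 for Sox11.

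Deviations of libraries with the same number in both genotypes had positive correlations in 6 of 6 numbers, from 0.0911 to 0.497, and exceeded 0.1 in 4 of 6. In 3 of 6 numbers a library correlated best with its own number. The deviations were taken from the genotype mean only, and libraries of the same number also belong to the same set by Y-linked reads. These correlations therefore cannot tell pairing from the sets. Since the labels do not say what a number shares and not every correlation exceeded 0.1, pairing was neither assumed nor excluded. With the replicate block 106 genes were called higher and 12 lower. Of the 24 tested members limma then called 0, with 5 at an unadjusted p under 0.05 (12.6% of all genes), against 3 (9.73%) without the block.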
